A study of Mus musculus with 32 samples.

Results

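The hematopoietic cytokine receptor genes described here are *Kit*, *Flt3*, *Csf1r*, *Csf2ra*, *Csf2rb*, *Csf2rb2*, *Csf3r*, *Il3ra* and *Il6ra*. These 9 genes were chosen by name, out of 21938 protein-coding genes of the GENCODE M21 annotation, by a rule that uses no measured value. For each gene, peaks were taken from the 16 lists of histone marks if they touched a promoter window (1 kb upstream to 500 bp downstream of any annotated transcription start site, TSS) or the gene body with 20 kb on either side. H3K4me3, H3K4me1, H3K9ac and H3K27ac had been profiled by ChIP-seq in the bone marrow of mice with terminal *MLL-AF9* leukemia. All donors carried *Kat2a* Flox/Flox alleles and were given pIpC. WT donors lacked Mx1-Cre and KO donors carried Mx1-Cre, an interferon-inducible recombinase that pIpC switches on in many cell types to excise the floxed *Kat2a* locus. Bone marrow was taken 4 to 6 weeks later, depleted of lineage-positive cells, transduced with a retrovirus expressing the *MLL-AF9* fusion and transplanted into lethally irradiated recipients. Total bone marrow of 5 WT and 4 KO leukemias was pooled, so residual host cells may be included. Each mark has 2 replicates a genotype, which are separate cell samples and chromatin preparations of the same pool, so that their spread holds no variation between animals. With 2 against 2 libraries no permutation test can give a p under 0.33, and no test was run. A comparison states instead whether both KO values lay on one side of both WT values, and gives the share of all protein-coding genes for which the same was true.

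Cytokine receptors pass signals for survival, proliferation and lineage choice from the marrow environment to blood progenitors. *Kit*, *Flt3* and *Csf1r* encode receptor tyrosine kinases, whereas the receptors for GM-CSF, IL-3, G-CSF and IL-6 have no kinase domain and work through Janus kinases and STAT factors. The alpha chains *Csf2ra* and *Il3ra* bind their ligands with the common beta chain *Csf2rb*, and mice have a further beta chain, *Csf2rb2*, dedicated to IL-3. Kat2a is a histone acetyl-transferase that deposits H3K9ac. H3K4me3 and H3K9ac mark active promoters, H3K4me1 marks enhancers, and H3K27ac marks active promoters and enhancers.

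The lists of H3K9ac of replicates 1 and 2 contain 33605 and 31677 peaks for WT against 27657 and 28861 for KO, and those of H3K4me3 contain 23297 and 15685 for WT against 20853 and 19517 for KO. For H3K27ac and H3K4me1, replicate 2 was used alone. Replicate 1 of these marks has lists with median peak widths of 48 or 49 bp and between 0 and 13 peaks at a q-value of at most 0.05. The study left out a replicate of each of these marks without naming it. The replicate 2 lists are longer in KO, with 46047 against 29757 peaks for H3K27ac and 78042 against 45770 for H3K4me1. In the WT H3K4me1 list, 34.3% of the peaks reached a q-value of at most 0.05, against 83.6% in KO. The lists give the authors' fold enrichment over background and no read count, so depth is unknown and a missing peak says only that none was called. *Kat2a* itself had a promoter H3K9ac peak in all 4 libraries, with folds of 8.0 and 4.58 in WT against 7.48 and 11.8 in KO. A promoter peak does not show whether the floxed part of the gene is present.

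The bone marrow origin was checked against marker genes. All 10 myeloid leukemia markers had a promoter H3K9ac peak in both WT replicates (51.7% of all genes) and 8 did in both KO replicates (50.1%). The 2 without were *Mpo* and *Elane*, which had none in KO replicate 1. The summed H3K9ac fold of these markers was 107 and 131 in WT against 73.1 and 120 in KO, and the genotypes overlapped. Genes without a peak add nothing to the sum, and the libraries have no common scale. The median promoter fold over all genes was 10.7 and 11.1 in WT against 9.61 and 11.6 in KO. Of the markers of other cells, the H3K9ac peaks in both WT replicates were at *Cd79b* (1 of 5 B cell markers), *Cd3d* and *Lck* (2 of 5 T cell markers), *Gp9* and *Itga2b* (2 of 4 megakaryocyte markers) and *Col1a1* and *Pdgfrb* (2 of 5 stromal and endothelial markers). None of 3 NK cell markers and none of 5 erythroid markers had one in both WT replicates. *Pax5*, *Cd3e* and *Cdh5* had no H3K9ac promoter peak in both replicates of either genotype.

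Every one of the 9 receptor genes carried a promoter H3K9ac peak in all 4 libraries. Across all protein-coding genes, 51.7% had one in both WT replicates and 50.1% in both KO replicates. H3K4me3 was listed in both replicates at 7 of 9 receptors in WT (48.4% of all genes) and at 8 of 9 in KO (50%). Replicate 2 of H3K27ac had a promoter peak at 8 of 9 receptors in WT (44.3%) and at all 9 in KO (49.8%). H3K4me1 lay in a promoter window of 4 of 9 receptors in WT (18.4%) and of 6 of 9 in KO (37.2%). The WT promoter peaks of H3K4me1, at *Flt3*, *Csf2ra*, *Csf2rb* and *Csf3r*, all had q-values over 0.05.

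To compare libraries without a common scale, the strongest promoter peak of each gene was placed by its fold enrichment among all genes with a promoter peak in the same library. The resulting percentile is the share of those genes with a fold at or below it. For H3K9ac, the median percentile of the 9 receptors was 45.4 and 62.8 for WT against 42.4 and 39.6 for KO. Both KO percentiles lay below both WT percentiles for 2 of 9 receptors, *Csf1r* and *Csf2rb2*, and for 18.4% of the 10837 genes with a peak in all 4 libraries. Both lay above for 3 of 9, *Kit*, *Flt3* and *Il6ra*, and for 12.8% of the genes. When peaks were ranked by −log10 p in place of fold, no receptor lay above (11.2% of genes) and *Csf2ra* joined the 2 that lay below (18.7%). *Csf2rb2* was the only receptor that lay below under all 4 other measures tried, which also included the fold itself, the outermost TSS and the length covered around the promoter.

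**Figure D1:**
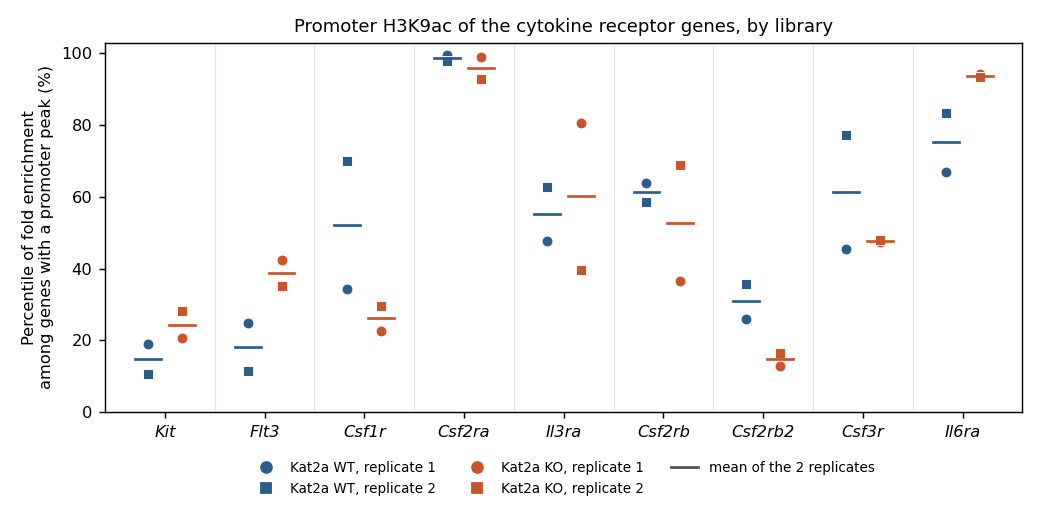
Percentile of the promoter H3K9ac fold enrichment (y axis, %) for each receptor gene (x axis) in the 2 WT and 2 KO libraries. Points are libraries and bars are means of the 2 replicates. *Csf2ra* lies between 92.9 and 99.6 in every library, and the KO points of *Csf1r* and *Csf2rb2* lie below their WT points while those of *Kit*, *Flt3* and *Il6ra* lie above.

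*Kit*, the receptor for stem cell factor and a marker of immature progenitors, spans chr5:75574916-75656722 on the plus strand (mm10). Its 8 annotated TSS form 6 promoter windows, and H3K9ac lay only in the first, which holds the canonical start. The H3K9ac fold was 5.32 and 4.49 in WT against 5.37 and 7.84 in KO, at percentiles 19 and 10.7 in WT against 20.6 and 28.1 in KO. Both KO values lay above both WT values, that of KO replicate 1 by a small margin, and *Kit* had the lowest mean WT percentile among the receptors (14.8 ± 5.83, SD, n = 2). H3K4me3 was listed at 7.69 and 4.74 in WT and at 3.17 and 6.57 in KO, with overlapping groups. The 300 bases around its RefSeq start (chr5:75574737-75575036, GRCm38.p6, plus strand) are given because this promoter ranked lowest for H3K9ac in WT. Capitals here and in the other sequences mark matches, on either strand, to the RUNX motif TGTGGT, the PU.1 motif GAGGAAGT, the GATA factor motif GATAA, the C/EBP motif TTGCGCAA or the E-box CACGTG. No matches overlap in the sequences shown.
Kit promoter: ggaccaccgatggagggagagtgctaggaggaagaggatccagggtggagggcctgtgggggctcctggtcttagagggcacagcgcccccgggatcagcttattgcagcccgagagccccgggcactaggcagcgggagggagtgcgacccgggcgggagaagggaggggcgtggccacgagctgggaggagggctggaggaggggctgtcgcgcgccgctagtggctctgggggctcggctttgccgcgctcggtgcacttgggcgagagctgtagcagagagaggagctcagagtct
No motif was found in this window. Over 32851 mouse promoters of the same length, the share that holds the motif is 16.8% for RUNX, 3.20% for PU.1, 25.4% for the GATA factors, 0.183% for C/EBP and 7.15% for the E-box. The matches describe letters only and say nothing of binding.

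*Kit* was also the only receptor without a promoter H3K27ac peak in WT replicate 2. In KO replicate 2 a peak of 243 bp with a fold of 2.82 was listed 379 bp downstream of the nearest TSS, at percentile 1.14 of that library. Of the genes without a WT peak, 10.5% had one in KO. No H3K27ac was listed anywhere in the *Kit* gene or its 20 kb flanks in WT replicate 2, against 957 bp in KO. H3K4me3 and H3K9ac were listed at its start in all 4 libraries of those marks.

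*Flt3*, the receptor for FLT3 ligand, lies at chr5:147330741-147400489 on the minus strand and has 1 annotated TSS. Its promoter H3K9ac fold was 6.4 and 4.58 in WT against 8.40 and 8.98 in KO. The percentiles of 25 and 11.6 in WT against 42.4 and 35.1 in KO did not overlap, with KO above. H3K4me3 was low in all libraries, at 4.54 and 3.64 in WT against 3.05 and 4.23 in KO, the latter 2 at percentiles 4.30 and 12.8. The promoter (chr5:147400440-147400739, minus strand, GRCm38.p6) is shown because its H3K9ac was higher in both KO libraries.
Flt3 promoter: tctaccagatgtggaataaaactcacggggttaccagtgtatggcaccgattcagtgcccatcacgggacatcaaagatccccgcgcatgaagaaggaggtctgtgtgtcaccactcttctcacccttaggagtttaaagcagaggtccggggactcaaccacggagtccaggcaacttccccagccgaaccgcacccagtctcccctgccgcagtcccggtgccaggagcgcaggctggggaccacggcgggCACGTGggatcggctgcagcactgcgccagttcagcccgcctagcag
It holds 1 CACGTG, close to the RefSeq start. H3K27ac at the same promoter had a fold of 3.26 in WT replicate 2 and 4.70 in KO replicate 2.

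*Csf1r*, the M-CSF receptor of the monocyte and macrophage lineage, is on chromosome 18 from 61100598 to 61132149 on the plus strand. It has a TSS at its outer end and a second group of 5 TSS from 4974 to 5281 bp further in, which is the start used in myeloid cells. H3K4me3 and H3K9ac were listed at the inner group in all 4 libraries and at the outer TSS in none. The H3K9ac fold was 7.97 and 14.9 in WT against 5.63 and 8.07 in KO, which overlap, but the percentiles of 34.3 and 70.1 in WT against 22.6 and 29.5 in KO did not. The WT replicates differed from each other by more than the WT mean differed from the KO mean (52.2 ± 25.3 against 26.1 ± 4.87, SD, n = 2 each). The promoter peak was 3200 and 3408 bp wide in WT against 1003 and 1690 bp in KO. In KO the acetylated stretch was split, with further H3K9ac peaks 6.46, 7.5 and 8.17 kb from the outer TSS in replicate 1 and 7.5 and 8.42 kb in replicate 2. The length covered around the promoter windows was 2560 and 2636 bp in WT against 2043 and 2479 bp in KO, so the difference in summed length was smaller than that in peak width.

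Of the 8 myeloid markers with a peak in all libraries, *Spi1*, *Cebpa*, *Cebpe* and *Ms4a3* had both KO percentiles below both WT percentiles, as *Csf1r* did. None had both above. Over all genes with such peaks, 18.4% had both below and 12.8% both above. *Spi1* encodes PU.1, a regulator of *Csf1r*, and its percentiles were 86.5 and 94.2 in WT against 69.8 and 70.4 in KO. Fewer cells of a type and a weaker mark per cell cannot be told apart in these pooled samples. Of the 7 markers of other cells with peaks in all 4 libraries, 5 had both KO percentiles below WT, against 18.4% of all genes. These were *Cd79b*, *Cd3d*, *Lck*, *Col1a1* and *Pdgfrb*, a neighbour of *Csf1r*, and at *Gp9* and *Itga2b* the genotypes overlapped. The part of cell composition in the *Csf1r* values was not tested.

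*Csf2ra*, the ligand-binding chain of the GM-CSF receptor, lies at chr19:61223957-61228429 on the minus strand. The gene is 4.47 kb long and its 7 TSS form 1 promoter window that covers most of the gene. Its H3K9ac was the strongest of the receptors in 3 of the 4 libraries, with folds of 37.7 and 28.9 in WT against 32.0 and 24.4 in KO, and in KO replicate 2 only *Il6ra* was higher. The percentiles were 99.6 and 97.8 in WT against 99.1 and 92.9 in KO and overlapped. H3K4me3 ranked lower, with a fold of 6.94 in WT replicate 1, no peak in WT replicate 2, and 3.30 and 4.83 in KO, the latter at percentiles 7.13 and 17.9. H3K27ac replicate 2 had a fold of 9.67 in WT and 19 in KO. The promoter around the RefSeq start (chr19:61228369-61228668, minus strand, GRCm38.p6) is shown as that of the most acetylated receptor, and none of the 5 motifs occurs in it.
Csf2ra promoter: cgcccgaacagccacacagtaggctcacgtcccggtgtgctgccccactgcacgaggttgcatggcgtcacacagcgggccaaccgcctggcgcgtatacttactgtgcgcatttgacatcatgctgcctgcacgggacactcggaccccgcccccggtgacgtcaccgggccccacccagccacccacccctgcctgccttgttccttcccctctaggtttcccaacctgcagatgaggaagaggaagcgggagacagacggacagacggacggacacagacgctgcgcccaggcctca

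*Il3ra*, the IL-3 receptor alpha chain, lies at chr14:14346275-14356011 on the plus strand. Its H3K9ac percentiles were 47.7 and 62.8 in WT against 80.6 and 39.6 in KO, so that the groups overlapped. The genotypes parted at a second promoter window, around the TSS 3346 bp downstream of the outermost. H3K9ac peaks were listed there in both WT libraries (781 bp in replicate 1, and 860 and 375 bp in replicate 2, with folds from 3.27 to 3.75) and in neither KO library. Over all genes, 1.81% of the promoter windows with a peak in both WT libraries had none in either KO library, and this was 1 of 10 such windows of the receptors. H3K27ac was listed in the same window in replicate 2 of both genotypes, with folds of 4.45 and 3.86 in WT and of 2.29 and 3.62 in KO. H3K4me3 was weak, at 3.55 in WT replicate 1, absent from WT replicate 2, and at 4.06 and 4.28 in KO. The promoter of the first window (chr14:14346245-14346544, plus strand, GRCm38.p6), which kept H3K9ac in all libraries, is shown and holds none of the motifs.
Il3ra promoter: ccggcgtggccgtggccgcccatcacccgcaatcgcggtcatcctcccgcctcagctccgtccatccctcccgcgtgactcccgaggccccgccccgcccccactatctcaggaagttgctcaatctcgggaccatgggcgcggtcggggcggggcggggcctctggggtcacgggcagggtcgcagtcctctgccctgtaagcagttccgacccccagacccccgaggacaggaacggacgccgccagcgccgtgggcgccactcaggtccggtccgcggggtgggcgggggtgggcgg

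*Csf2rb* encodes the beta chain shared by the GM-CSF, IL-3 and IL-5 receptors and lies at chr15:78325752-78353847 on the plus strand. Its H3K4me3 was the highest of the receptors in 3 of the 4 libraries, all but KO replicate 2, with folds of 12.6 and 6.32 in WT against 8.18 and 4.17 in KO. H3K9ac was listed at 13.4 and 12.6 in WT against 7.57 and 15.4 in KO, and the KO values enclosed the WT values. The promoter H3K9ac peak was 2262 and 2310 bp wide in WT against 1269 and 1630 bp in KO. H3K27ac replicate 2 had a fold of 6.61 in WT and 11 in KO.

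*Csf2rb2*, the IL-3-specific beta chain, lies at chr15:78282507-78305721 on the minus strand, next to *Csf2rb*. It was the only receptor with promoter H3K4me3 in both WT replicates and in neither KO replicate. H3K4me3 peaks of 539 and 532 bp, with folds of 6.68 and 5.06, were listed in WT. Of all genes with H3K4me3 in both WT replicates, 0.716% had it in neither KO replicate. H3K9ac was listed in all 4 libraries, at 6.55 and 8.76 in WT against 4.27 and 5.71 in KO, and the percentiles of 26.1 and 35.7 in WT against 12.8 and 16.6 in KO did not overlap. H3K27ac ran the other way in replicate 2, with a fold of 3.07 (percentile 3.84) in WT and 6.95 (38.2) in KO. H3K4me1 was listed at this promoter in KO replicate 2, with peaks of 515 and 721 bp, and not in WT replicate 2. The promoter (chr15:78305672-78305971, minus strand, GRCm38.p6) is shown because both H3K4me3 and H3K9ac separated the genotypes in its promoter window. The bases shown lie outside both WT H3K4me3 peaks, which end at 78305561 and 78305577. They also lie outside the H3K9ac peak of KO replicate 1, which ends at 78305597.
Csf2rb2 promoter: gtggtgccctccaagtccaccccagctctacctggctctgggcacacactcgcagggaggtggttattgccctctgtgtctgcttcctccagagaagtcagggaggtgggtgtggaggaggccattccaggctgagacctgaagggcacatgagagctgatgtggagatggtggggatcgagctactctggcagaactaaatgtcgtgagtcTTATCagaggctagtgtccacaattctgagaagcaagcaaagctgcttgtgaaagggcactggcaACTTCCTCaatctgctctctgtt
It holds 1 match to GATAA and, downstream of it, 1 match to GAGGAAGT, both on the opposite strand. *Csf2rb* has no entry among the RefSeq promoters used. Since the beta chain genes are near-identical copies in part, reads could be split between them. Of the 50-base stretches of the *Csf2rb2* gene, 15.6% occur also in *Csf2rb*. Of those under the *Csf2rb2* promoter peaks, 2.60% occur around the *Csf2rb* start. Whether reads were split was not tested.

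*Csf3r*, the G-CSF receptor of neutrophils and their precursors, lies at chr4:126024550-126044440 on the plus strand. Its H3K9ac folds were 9.87 and 16.6 in WT against 9.13 and 11.2 in KO, and the percentiles of 45.4 and 77.1 in WT against 47.3 and 48.0 in KO overlapped. H3K4me3 spread widely in WT, at 9.67 and 3.43, and lay at 4.98 and 5.09 in KO. In its second promoter window, around the TSS 2742 bp downstream, both KO libraries and neither WT library had an H3K9ac peak. Both peaks reached only the upstream edge of the window. Over all genes, 0.577% of the windows with a peak in both KO libraries had none in either WT library, and this was 1 of 10 such windows of the receptors. In KO replicate 2 this was an extension of the main peak, which was 2700 bp wide, and in replicate 1 a separate peak of 390 bp with a fold of 2.85.

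*Il6ra*, the ligand-binding chain of the IL-6 receptor, lies at chr3:89864059-89913196 on the minus strand. Its H3K9ac folds were 14.1 and 18.7 in WT against 22.6 and 24.7 in KO. The percentiles of 67.0 and 83.5 in WT against 94.1 and 93.3 in KO did not overlap, and *Il6ra* had the highest of the values that lay above WT. H3K4me3 overlapped, at 10.9 and 5.53 in WT against 5.76 and 6.60 in KO. H3K27ac replicate 2 showed the largest fold among the receptors in KO, 21.3 against 8.46 in WT.

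By the percentile of fold, H3K4me3 did not separate the genotypes at the remaining promoters that could be compared. *Csf2ra* and *Il3ra*, without a peak in WT replicate 2, could not be. When peaks were ranked by −log10 p, *Kit* and *Il6ra* lay below WT in both KO libraries (17.6% of genes). Of the 6 receptors with a peak in all 4 H3K4me3 libraries, none had both KO percentiles of fold below or above both WT percentiles, against 17.4% and 17% of 10247 genes. The WT replicates lay far apart at several receptors, for example at percentiles 40.1 and 1.56 for *Csf1r* and 62.4 and 6.72 for *Csf3r*. For H3K4me3 the length covered in the gene and its flanks was below WT in both KO libraries at *Csf2rb* and *Csf2rb2* (5.81% of genes) and above it at *Csf2ra* (4.68%).

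H3K27ac, of which 1 library a genotype could be used, was listed with a higher fold in KO at all 8 receptors that had a promoter peak in both, as it was at 82.1% of 9634 genes. Their percentiles were also higher in KO at 8 of 8, against 57.4% of 9634 genes. The difference ran from 9.49 percentage points at *Csf3r* to 44.0 at *Il3ra*, with a median of 17.9, whereas the median over all genes was 3.45, with quartiles of −9.76 and 18.9. The smaller differences fell between these quartiles, and those of *Csf2rb2* (34.3), *Il3ra* and *Il6ra* (24.9) above its upper quartile, as did that of *Csf2rb* (18.9) by a margin too small to separate. The direction held at 8 of 8 receptors when only genes with a peak in both lists were ranked, where 49.1% of genes were higher in KO. There is no replicate for this comparison, and the KO list is the longer one.

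**Figure D2:**
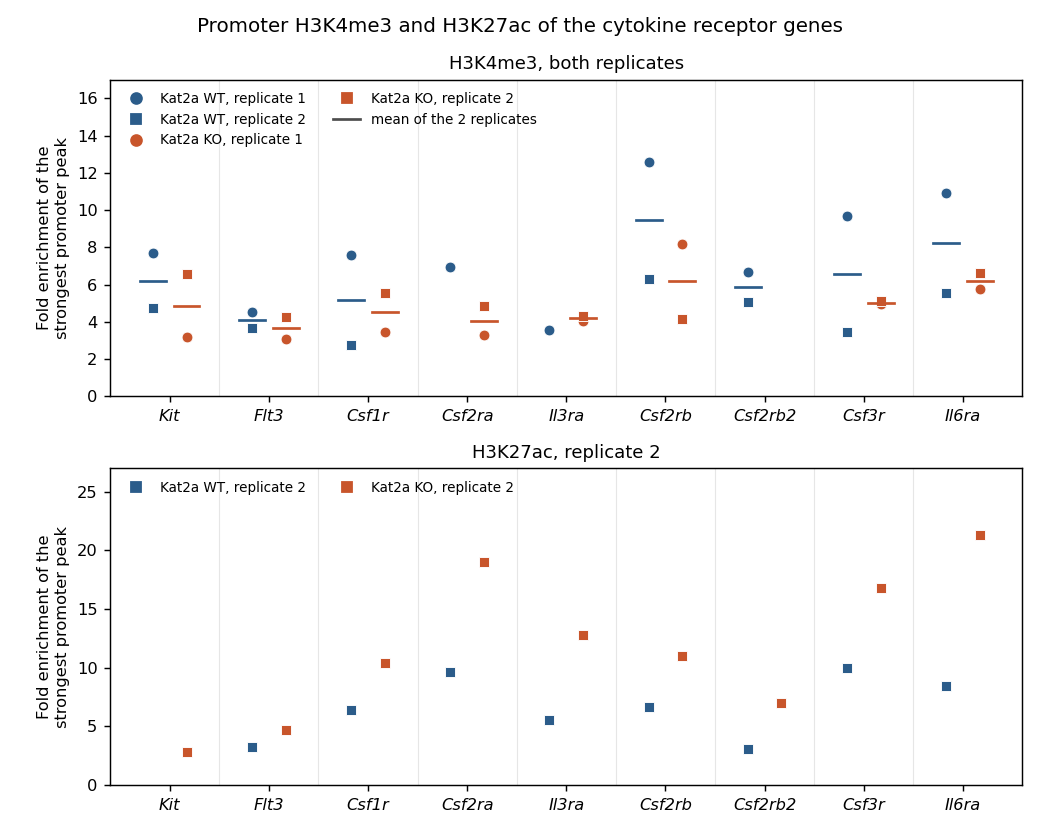
Fold enrichment of the strongest promoter peak (y axis) of each receptor gene (x axis) for H3K4me3 in 2 replicates a genotype (top) and H3K27ac in replicate 2 (bottom). Points are libraries, bars are means where both replicates had a peak, and a missing point means that no peak was listed. *Csf2rb2* has no H3K4me3 point in KO, and the KO H3K27ac point lies above the WT point at all 8 receptors that have both, as it does for 82.1% of all genes with both.

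The second part of the comparison concerned the length of acetylated chromatin along each gene. Over the gene body and 20 kb on either side, both KO libraries had less H3K9ac-covered length than both WT libraries at 7 of 9 receptors, against 41.9% of 15792 genes, and no receptor had more in both (2.31%). The exceptions were *Csf1r* and *Csf3r*. *Csf2rb* and *Csf2rb2* share the stretch between them, so their counts are not independent. *Il3ra* showed the lowest KO to WT ratio in replicate 2 (0.375), with 2994 and 3540 bp in WT against 1304 and 1327 bp in KO. *Il6ra* had 5653 and 5776 bp in WT against 3509 and 3303 bp in KO, although its promoter percentile was higher in KO. *Csf2rb2* had 1280 and 1913 bp in WT against 531 and 1240 bp in KO, and *Kit* had 1764 and 2041 bp in WT against 1192 and 1361 bp in KO. At *Csf2ra* the gap was small, with 3029 and 2560 bp in WT against 2244 and 2508 bp in KO. The median KO to WT ratio of the receptors was 0.625 in replicate 1 and 0.667 in replicate 2, and that of all genes 0.806 and 0.907. The KO lists of H3K9ac hold fewer peaks, and with the same number of peaks in each list 5 of 9 receptors had less in both KO libraries, against 35.8% of genes, with *Kit* and *Csf2rb* no longer among them.

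**Figure D3:**
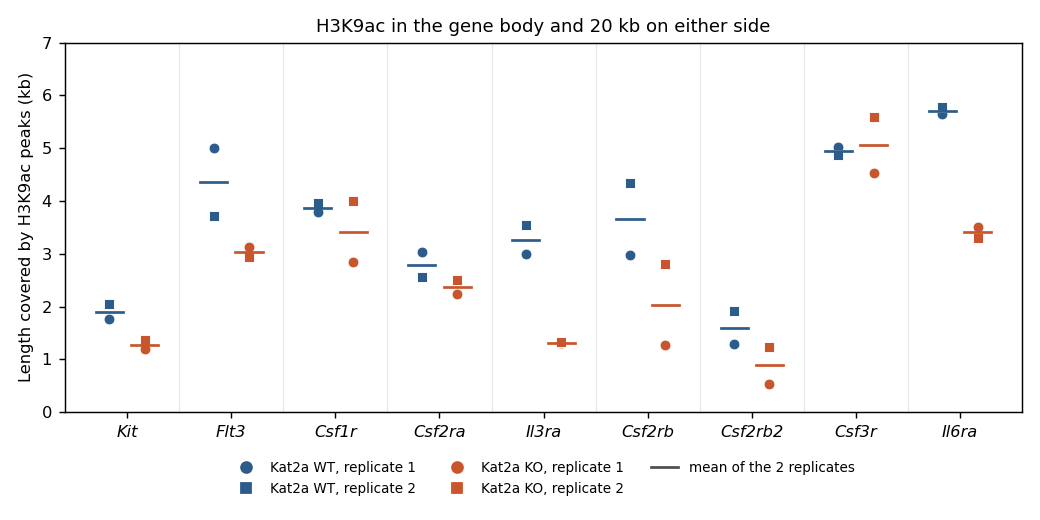
Length covered by H3K9ac peaks (y axis, kb) in the gene body and 20 kb on either side of each receptor gene (x axis), by library. Points are libraries and bars are means of the 2 replicates. Both KO points lie below both WT points at 7 of 9 genes, with the widest gap at *Il6ra* (3509 and 3303 bp against 5653 and 5776 bp).

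H3K27ac and H3K4me1 ran in the other direction in replicate 2. H3K27ac covered over 2 times more length in KO at 5 of the 8 receptors with H3K27ac in WT, against 30.3% of genes. *Flt3* had the largest ratio, with 951 bp in WT and 7970 bp in KO, or 8.38 times, and 4.70 times with equal numbers of peaks. The other 4 were *Csf2rb*, *Csf2rb2*, *Csf3r* and *Il6ra*, with ratios from 2.11 to 3.38. With equal numbers of peaks the ratio was 1.62 at *Csf2rb2* and 1.28 at *Il6ra*. In the gene bodies alone it was 1.03 at *Csf2rb* and 1.07 at *Csf2rb2*, so the excess of these genes lay in their flanks. At *Csf2ra* and *Il3ra* the lengths were close, at ratios of 1.24 and 1.23. H3K4me1 covered over 2 times more length in KO at 7 of 8 receptors, but so it did at 81.1% of genes.

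Intragenic enhancer marks were taken as H3K4me1 peaks of replicate 2 in the gene body that touched no promoter window of any gene and no H3K4me3 peak of the same genotype. In WT there were 19 such regions in 6 of the 9 genes and in KO 39 regions in the same 6 genes. At least 1 region was found in 28.5% of all genes in WT and in 36.5% in KO. *Csf2ra*, *Il3ra* and *Csf2rb2* had none in either genotype. Of the 39 KO regions 12 overlapped an H3K4me1 peak of WT, or 30.8%, against 29.2% of the KO regions of all genes. Of the 19 WT regions 9 overlapped one of KO, or 47.4%, against 57.9% over all genes. In WT, 3 regions were acetylated (2 with H3K9ac, 1 with H3K27ac), and in KO 21, all with H3K27ac and 5 also with H3K9ac. An acetylated region was present in 3 of 9 receptors in WT (10.3% of genes) and in 5 of 9 in KO (17.6%). Over all genes, 25.5% of 22572 intragenic WT regions and 34.7% of 36597 KO regions were acetylated, against 15.8% and 53.8% for the receptors. With equal numbers of peaks in the lists, 8 of 26 KO regions were acetylated, or 30.8%, against 33.8% over all genes, so that the share of the receptors was then near that of all genes. In WT it was 3 of 21, or 14.3%, against 25.3%. When regions on H3K4me3 were kept, 9 of 25 WT regions and 21 of 40 KO regions were acetylated, so the low WT share depends on that filter. No share of all genes is given for that setting.

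**Figure D4:**
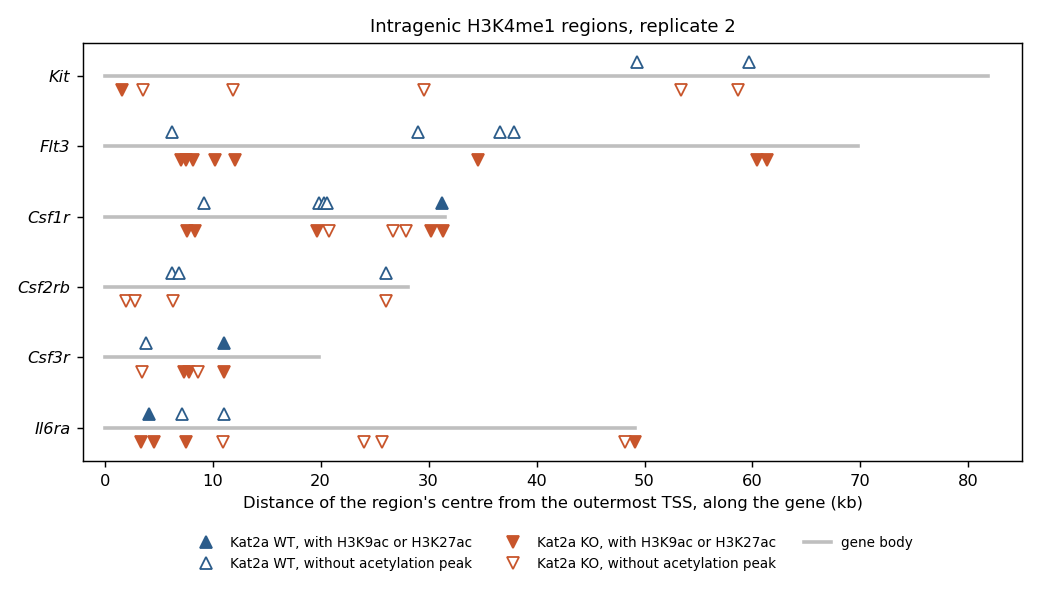
Intragenic H3K4me1 regions of replicate 2 in the 6 receptor genes that have any, by distance from the outermost TSS (x axis, kb). Triangles pointing up are WT regions and triangles pointing down KO regions, filled where H3K9ac or H3K27ac overlaps, and grey lines are gene bodies. All 8 *Flt3* regions in KO are filled and all 4 in WT are open.

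*Flt3* had 4 intragenic H3K4me1 regions in WT, none of them acetylated, and 8 in KO, all with H3K27ac. None overlapped between the genotypes, whereas 29.2% of the KO regions and 57.9% of the WT regions of all genes did. All 4 WT regions missed a q-value of 0.05, with a −log10 q from 0.0155 to 0.922, so the lack of overlap rests on weak WT calls. The KO region 8.21 kb from the TSS, in intron 1, was the strongest H3K4me1 region of any receptor, with a fold of 8.91. The acetylation of the first intron was not confined to KO. H3K9ac was listed about 7.3 kb from the TSS in all 4 libraries, with folds of 3.95 and 4.35 in WT against 4.29 and 3.71 in KO, and H3K27ac in replicate 2 of both genotypes, with folds of 4.78 in WT and 4.35 in KO. A second acetylated site, in intron 9 about 37.5 kb from the TSS, had H3K9ac in both WT libraries and KO replicate 2 and H3K27ac in replicate 2 of both genotypes. A WT H3K4me1 region lay beside this site without overlap. It ended at 147362676, and the H3K27ac peak of WT replicate 2 began at 147362711. H3K4me1 was listed at the first of these sites in KO alone. H3K27ac was listed at 8 further intragenic positions in KO and at none of them in WT. WT was not without acetylation near these positions. H3K9ac of WT replicate 1 overlapped the KO H3K27ac peaks 8.30 and 59.02 kb from the TSS, and H3K9ac of KO replicate 2 that at 34.2 kb. Elsewhere in intron 1, H3K9ac was listed in both WT libraries, with folds of 2.65 and 3.61, and in neither KO library. These WT peaks touched KO H3K4me1 regions but not the KO H3K27ac peaks.

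*Csf1r* had 5 intragenic regions in WT and 8 in KO. An intronic enhancer of *Csf1r* downstream of the myeloid start is well known. In intron 1, H3K27ac was listed 7.43 and 8.40 kb from the outer TSS in WT replicate 2, with folds of 3.86 and 3.41, and as 1 peak of 1819 bp with a fold of 8.11 in KO replicate 2. H3K9ac covered the same stretch in all 4 libraries. WT H3K4me1 in this stretch overlapped H3K4me3 of WT replicate 1 and was not counted, whereas both KO H3K4me1 regions were. Intron 10 held H3K4me1 in both genotypes about 20 kb from the outer TSS, and an H3K27ac peak there was listed in KO alone, with a fold of 2.82. At the 3' end of the gene, about 31 kb from the outer TSS, H3K4me1 and H3K27ac were listed in both genotypes, with H3K27ac folds of 4.45 in WT and 4.86 in KO.

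*Il6ra* had 3 regions in WT and 8 in KO, with 4 of the KO regions in intron 1. H3K9ac ran along this intron in WT, with 5 intronic peaks within 8 kb of the TSS in replicate 1 and 4 in replicate 2, against 2 and 1 in KO. The strongest was in WT replicate 2, 7.88 kb from the TSS, with a fold of 6.97. H3K27ac replicate 2 had 2 peaks in intron 1 in WT and 3 in KO, and its promoter peak was 2351 bp wide in WT and 3325 bp in KO. *Csf3r* had 2 regions in WT and 5 in KO. Besides *Csf1r*, these genes each held 1 region with acetylation in both genotypes. For them, 300 bases around the centre of the WT region are shown. The WT H3K4me1 peaks of these regions missed a q-value of 0.05, with a −log10 q of 0.486 at *Csf3r* and 0.922 at *Il6ra*. With that cutoff, 0 acetylated WT regions were left in the receptors.
Csf3r intragenic region: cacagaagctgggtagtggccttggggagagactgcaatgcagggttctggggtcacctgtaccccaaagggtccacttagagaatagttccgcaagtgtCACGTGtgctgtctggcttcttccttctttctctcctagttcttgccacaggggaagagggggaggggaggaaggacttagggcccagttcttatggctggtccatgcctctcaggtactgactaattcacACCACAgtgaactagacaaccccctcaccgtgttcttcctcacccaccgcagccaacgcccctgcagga
Il6ra intragenic region: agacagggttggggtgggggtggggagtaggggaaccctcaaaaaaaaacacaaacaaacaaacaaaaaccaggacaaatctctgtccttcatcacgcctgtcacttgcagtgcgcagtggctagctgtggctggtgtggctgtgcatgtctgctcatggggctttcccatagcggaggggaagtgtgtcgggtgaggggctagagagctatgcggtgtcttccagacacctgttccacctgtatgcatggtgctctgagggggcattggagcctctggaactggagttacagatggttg
The *Csf3r* window (chr4:126035483-126035782, plus strand, GRCm38.p6) is centred on a WT region in intron 9 that lay wholly inside the KO region. It holds 1 CACGTG and 1 TGTGGT, the latter on the opposite strand. The *Il6ra* window (chr3:89908955-89909254, minus strand) lies in intron 1, the WT and KO regions share 61 bp, and no motif was found. Of 22572 windows placed in the same way on all intragenic WT regions, 4.71% hold CACGTG and 24.3% TGTGGT. In both genes WT acetylation at the region was H3K9ac in both replicates and KO acetylation was H3K27ac. H3K9ac was listed over neither region in KO and no H3K27ac in WT replicate 2.

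*Kit* and *Csf2rb* had intragenic H3K4me1 with little acetylation. *Kit* had 2 regions in WT, both in intron 7, and 6 in KO, 4 of them in intron 1. None overlapped between the genotypes, as at *Flt3*, but both WT regions missed a q-value of 0.05 (−log10 q of 0.0825 and 0.486). Only the KO region 1.63 kb from the TSS touched an H3K27ac peak, with a fold of 2.91. *Csf2rb* had 3 regions in WT and 4 in KO, with the site in intron 2 about 6.2 kb from the TSS present in both genotypes at H3K4me1 folds of 5.23 in WT and 3.48 in KO. None of the *Csf2rb* regions was acetylated, although H3K9ac peaks lay near this site, about 5.48 kb from the TSS, in replicate 2 of both genotypes.

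The partners of these receptors were described from lists of genes by role. Over all protein-coding genes, 51.7% had promoter H3K9ac in both WT replicates and 50.1% in both KO replicates. Of 8 ligand genes, *Flt3l* and *Csf1* had promoter H3K9ac in both replicates of both genotypes, and neither separated WT from KO. *Kitl*, the ligand of *Kit*, had H3K4me3 in both WT replicates and no H3K9ac in any library. Of 17 signal transducers, all had H3K9ac in both genotypes. *Stat3*, *Lyn* and *Stat6* had the highest mean percentiles, at 98.1, 94.2 and 93.9. Both KO percentiles lay below both WT percentiles at *Lyn*, a Src family kinase, and *Pik3cd*, a catalytic subunit of PI3 kinase. They lay above at *Stat4* and *Syk*, which makes 2 and 2 of 17, against 18.4% and 12.8% of all genes. *Syk*, a tyrosine kinase, stood at 79.2 and 82.4 in WT against 93.2 and 98.9 in KO.

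All 11 feedback inhibitors had H3K9ac in both genotypes (51.7% of all genes in WT and 50.1% in KO). *Cbl*, *Sh2b3* and *Dusp6* had the highest mean percentiles, at 91.2, 88.1 and 84.5. None of the 11 lay below WT in both KO libraries (18.4% of all genes), and 2, *Socs2* and *Dusp6*, lay above (12.8%). *Socs2* did so by a small margin at low percentiles, with 4.32 and 3.27 in WT against 4.69 and 6.92 in KO. *Dusp6*, a phosphatase that acts on ERK, stood at 80.1 and 67.6 in WT against 94.7 and 95.6 in KO. Of 23 other cytokine receptor genes, 15 had H3K9ac in both replicates of WT (51.7% of all genes) and 15 of KO (50.1%). In all 4 libraries 14 had it. Among these 14, *Lifr*, *Il10ra*, *Il10rb* and *Il1rap* lay below WT (18.4% of all genes) and *Il11ra1*, *Il6st* and *Il1r1* above (12.8%). *Il10rb*, *Crlf2* and *Ifngr2* had the highest mean percentiles, at 95.2, 94.2 and 92.0. *Il6st*, the signaling partner of *Il6ra*, stood at 44.4 and 13.3 in WT against 45.5 and 55.5 in KO. The margin between 44.4 and 45.5 was small. The folds of *Il6st* overlapped, at 9.72 and 4.91 in WT against 8.85 and 12.6 in KO. *Il2ra*, *Il2rb*, *Il5ra*, *Il7r*, *Il9r* and *Osmr* had no promoter H3K9ac in any library, whereas *Epor* had it in both KO libraries, at percentiles 1.47 and 3.33, and in no WT library.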

How the data were processed

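The 16 deposited peak lists of the ChIP libraries were analysed. Per the submitters' processing notes and the methods, the authors used BWA for alignment to mm10 and MACS2 for peak calling at a q-value of 0.05, yet the lists also hold peaks above it. Versions are not given in the sources used here. In the deposited lists a peak has a score (not used), a fold enrichment over background, which is a ratio, and its p-value and q-value as −log10. The 16 input libraries were not analysed here. Groups were taken from the sample labels.

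Positions, counted from 1, were set against GENCODE M21. An overlap of 1 bp was enough. A gene was marked when both replicates listed a promoter peak, or replicate 2 alone for H3K27ac and H3K4me1. Intron numbers are those of the protein-coding transcript with the most exon bases. Promoter sequences are RefSeq (GRCm38.p6), with entries for 7 of 9 genes. The genes to name were all 9 receptors and, in the other lists, the 3 with the highest mean H3K9ac percentile and any that make up a count of 5 or fewer. Others named were picked after their values were seen. Receptors and lists were chosen with earlier results of these data known. Replicate numbers were not taken as pairs, since they share only a number (the replicate deviations of WT and KO correlated at 0.133 for H3K9ac and −0.00146 for H3K4me3). Alternatives are given in the closing section. The interval code (Python 3.11.15, numpy 2.4.6, pandas 2.3.3) was tested on simulated data and gave the result of bedtools 2.31.1 in 50 of 50 comparisons. Some genes of the marker and receptor lists are not reported here.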

Additional observations from a re-analysis of the deposited data

Results flagged for a closer look

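H3K27ac replicate 1 of WT, which the promoter comparisons did not use, holds 8 peaks in the promoter windows of the receptors, 5 at *Csf2ra*, 2 at *Il3ra* and 1 at *Csf1r*. They are given because they lie in a list outside the main measurement. Their widths ran from 48 to 106 bp and their folds from 3.12 to 4.85, and all have a −log10 q of 0. In this list 12.7% of protein-coding genes have a promoter peak. Replicate 1 of KO has no promoter H3K27ac peak at any receptor. The 8 peaks lie at receptors that also have a promoter H3K27ac peak in WT replicate 2.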

How the results depend on the processing

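The replicates of a genotype share a pool of animals, 1 usable H3K27ac and H3K4me1 library stands for each genotype, and depth is unknown, so that a missing peak sets no limit on a mark. Promoter counts of the 9 receptors moved by over 1.5 times as follows. At a −log10 q of at least 5, H3K4me3 was counted at 3 receptors in WT and 3 in KO and H3K4me1 at 0 and 2. At a q-value of at most 0.05, H3K4me1 was counted at 0 in WT. The consensus of both replicates left H3K27ac at 3 in WT and 0 in KO and H3K4me1 at 0 in both. With each replicate left out in turn, the H3K27ac count ran from 3 to 8 in WT and from 0 to 9 in KO, and the H3K4me1 count from 0 to 4 and from 0 to 6. The H3K9ac counts stayed within 1.5 times, at 6 to 9 in WT and 8 to 9 in KO.

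Of the receptors with an H3K9ac percentile below WT in both KO libraries, 1 was left with the fold in place of the percentile (19.2% of all genes) and 1 with the outermost TSS (18.5%). By the length covered within 2 kb of the promoter windows 5 were counted, but so were 39.6% of all genes. Those above became 0 with the −log10 p (11.2% of all genes) and 0 by length covered (3.83%). With 1 replicate number left out, only the sign remains, and 4 to 5 lay below and 4 to 5 above. The shares of all genes were then 51.1% to 57.4% below and 42.6% to 48.9% above. For H3K4me3, 2 lay below with the −log10 p (17.6% of all genes) and 1 by length covered (8.32%). With a replicate number left out 2 to 7 lay below (46.3% to 53.5%) and 1 to 4 above (46.5% to 53.7%). With the replicate block, that is the sign within each replicate number, 3 lay below (29.5% of all genes) and 3 above (21.2%) for H3K9ac. For H3K4me3 it was 2 below (25.2%) and 0 above (25.5%). Across all these counts, 99 values stayed within 1.5 times and 40 did not. The cause of these changes was not tested.

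Intragenic H3K4me1 regions of WT numbered 6 at a q-value of at most 0.05, 0 in the consensus and 45 with the 20 kb flanks, and those of KO numbered 1 and 81 in the last 2. The acetylated ones numbered 0, 0 and 7 in WT and 9 when regions on H3K4me3 were kept, and in KO 8 with equal numbers of peaks, 0 in the consensus and 35 with the flanks. The comparison of H3K27ac percentiles and the H3K9ac lengths of the gene and flanks, with their alternatives, were added after the data were seen, and none of their counts moved by over 1.5 times.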

Other observations

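The genes of the beta chains are separated by 20030 bp, which belong to the flanks of both, so that any peak there counts for *Csf2rb* and for *Csf2rb2*. For replicate 2, H3K4me1 covered 330 bp of this stretch in WT but 3228 bp in KO, with 1 and 4 peaks outside every promoter window. H3K27ac of replicate 2 covered 204 bp in WT but 1375 bp in KO, with 0 and 2 such peaks. H3K9ac covered 520 and 1041 bp in WT against 0 and 516 bp in KO, so that both KO values lay below both WT values, by 1 close pair (516 and 520 bp). H3K4me3 was not listed there in any library.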
